A study of Mus musculus with 2 samples.

Results

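The mouse glutathione peroxidase genes Gpx1 to Gpx8 were followed in RNA sequencing of samples labelled as adipose, 1 library from WT mice and 1 from Trappc9 knockout (KO) mice. The members were the 8 lines of the deposited gene table with these symbols, of 54532 lines in all. The family was chosen by the measured level of Gpx5, the highest of any protein-coding gene in both libraries, so its rank is given as a description. Levels are deposited FPKM values (fragments per kilobase of gene length, divided further by a library size), in the library labelled WT first. Per the series' design text, abdominal fat pads came from 3 WT and 3 Trappc9 KO mice aged 3 to 4 weeks and were digested with collagenase, whereas the extraction label describes flash-frozen pads and the sample titles name adipose stem cells. Strain, sex, the knockout allele and any pooling of mice are not given in the sources used here.

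Glutathione peroxidases reduce hydrogen peroxide or lipid hydroperoxides to water or alcohols, and most of them take the electrons from glutathione. The catalytic residue is a selenocysteine in some members, read from an in-frame UGA codon, and a cysteine in others. Gpx1 is the widespread cytosolic enzyme, Gpx2 the form of gut epithelium, Gpx3 the secreted plasma form and Gpx4 the enzyme that reduces phospholipid hydroperoxides in membranes. Gpx5 is secreted by the epididymis, where sperm mature on leaving the testis, and protects them from peroxides. Gpx6 is known from olfactory epithelium, and Gpx7 and Gpx8 reside in the endoplasmic reticulum (ER), where proteins are folded with the help of oxidation.

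The coding sequence around the catalytic codon is shown because it divides the family, and because the most abundant member falls on the cysteine side. Each line gives 36 bases, 5′ to 3′, from the GENCODE M21 transcript with the longest coding sequence (GRCm38, also called mm10), with the catalytic codon in capitals.
Gpx1: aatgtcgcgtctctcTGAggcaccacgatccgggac
Gpx2: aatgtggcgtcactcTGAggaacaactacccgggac
Gpx3: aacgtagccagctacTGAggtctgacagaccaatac
Gpx4: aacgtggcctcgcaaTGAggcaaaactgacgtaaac
Gpx5: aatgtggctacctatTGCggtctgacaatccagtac
Gpx6: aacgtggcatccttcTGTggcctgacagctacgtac
Gpx7: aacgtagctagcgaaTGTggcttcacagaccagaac
Gpx8: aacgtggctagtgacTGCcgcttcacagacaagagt

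Gpx1, Gpx2, Gpx3 and Gpx4 each had 1 in-frame TGA before the stop codon, the selenocysteine codon, at this place. Gpx5, Gpx6, Gpx7 and Gpx8 had 0, and carried a cysteine codon, TGC or TGT, instead. The Gpx5 stretch lies at chr13:21291318-21291353 on the minus strand and the Gpx6 stretch at chr13:21313762-21313797 on the plus strand. In Gpx3, Gpx5 and Gpx6 the catalytic codon was codon 73 of the coding sequence and lay in exon 2 of 5. Over the coding sequences, Gpx5 matched Gpx6 at 71.0% and Gpx3 at 70.9% of aligned bases. These pairs, with Gpx3 and Gpx6 (70.9%) and Gpx1 and Gpx2 (70.5%), were the 4 of 28 pairs at 70% or more, and the other 24 pairs ranged from 51.3% to 66.2%.

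The library labelled WT held 13705193 recovered fragments and the library labelled KO 14783728. Since each genotype had a single library, no difference has a replicate check and p-values were not computed. Trappc9 itself, the targeted gene, stood at 9.94 and 12.6 FPKM. This gene-level value does not show a loss of the transcript under the KO label, and cannot show a deletion that leaves most of it in place, so the libraries are named by their labels. Mature adipocyte markers were low in both libraries. The 8 listed genes summed to 31.8 and 14.1 FPKM, with Adipoq, the adipocyte hormone adiponectin, at 2.30 and 0.51 FPKM and none at 0 in both. The 17 listed markers of epididymal epithelium summed to 14995 and 21583 FPKM, and 17 of 17 were above 0 in both libraries. In such bulk samples, fewer cells of a type and less RNA per cell cannot be told apart.

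Gpx5 stood at 10039 FPKM (238029 fragments) in the library labelled WT and 11686 FPKM (279824 fragments) in the library labelled KO. It ranked 1 of 22046 protein-coding genes in each, by FPKM and by fragments, 2.61 and 2.09 times the FPKM of the next. On its own it took 1.74% and 1.89% of all fragments. Within the family it made up 92.7% and 92.1% of the summed FPKM, which was 10824 and 12695.

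The other members followed in the same order in both libraries. Gpx3 came next, at 498 FPKM (12800 fragments) and 679 FPKM (17617 fragments), so that Gpx5 was 20.1 and 17.2 times higher. Gpx4 was at 97.2 FPKM (2373 fragments) and 116 FPKM (2863 fragments). Gpx1 was close behind, at 87.3 FPKM (1782 fragments) and 108.5 FPKM (2237 fragments). These levels put the secreted form above both of the widespread intracellular enzymes in each library.

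The 95% Poisson intervals of Gpx4 and Gpx1, which cover counting error only, did not overlap in the library labelled WT (93.3 to 101.2 and 83.3 to 91.5 FPKM). In the library labelled KO they overlapped (111.9 to 120.4 and 104.1 to 113.1 FPKM), so their order there was within counting error. The deposited gene length also spans exons of noncoding transcripts, so levels were also divided by the length of the transcript with the longest coding sequence. Gpx4 was then at 168 and 201 FPKM and Gpx1 at 117 and 146 FPKM. Gpx4 kept the higher place on this scale, and the order of the 8 genes did not change.

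Of the ER members, Gpx8 was at 52.8 FPKM (784 fragments) and 66.7 FPKM (1000 fragments). Gpx7 was lower, at 19.4 FPKM (355 fragments) and 17.8 FPKM (328 fragments). Gpx6 stood at 30.2 FPKM (585 fragments) in the library labelled WT and 20.4 FPKM (399 fragments) in the library labelled KO. It lay above Gpx7 in the library labelled WT, whereas in the library labelled KO their intervals overlapped (18.4 to 22.5 FPKM for Gpx6 and 15.9 to 19.8 FPKM for Gpx7). Gpx2 was the lowest, at 0.022 FPKM from 1 fragment and 0.087 FPKM from 4 fragments.

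**Figure D1:**
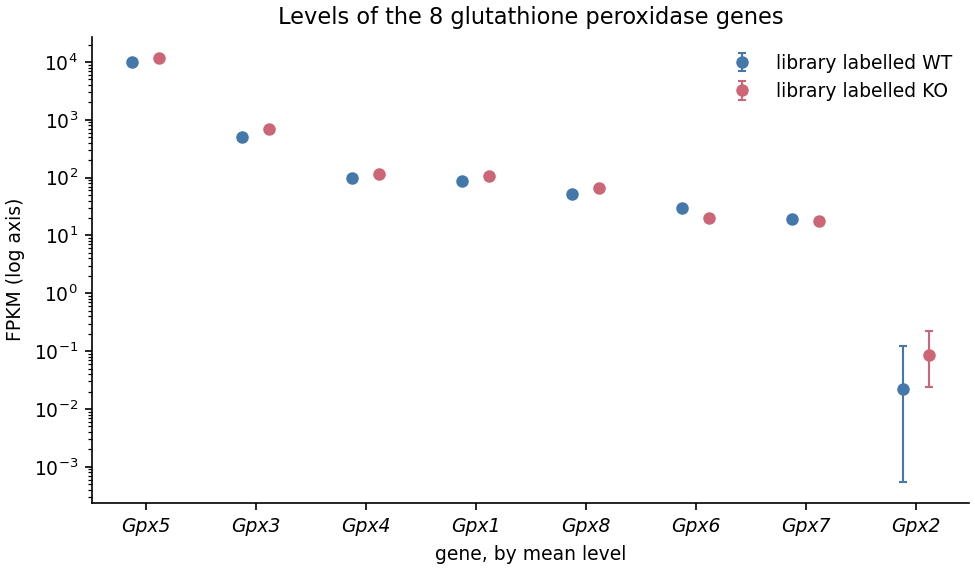
Level of each glutathione peroxidase gene in FPKM (log axis) in the library labelled WT (blue) and the library labelled KO (red), with 95% Poisson intervals that cover counting error only. Gpx5 lies at 10039 and 11686 FPKM, Gpx3 follows at 498 and 679 FPKM, and Gpx2 is the only member below 1 FPKM.

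The comparison of genotypes asked how the family's levels differed between the library labelled KO and the library labelled WT. Each difference is expressed as log2((KO + 1)/(WT + 1)). The pseudocount of 1 FPKM makes the change of low genes look smaller than it was. Each ratio of FPKM has an exact 95% Clopper-Pearson interval for counting error only, and a gene whose interval excludes 1 is called higher or lower beyond counting error. Of the 8 members, 7 had a mean of at least 1 FPKM and were counted as measured, and Gpx2 was not. Beyond counting error 5 were higher and 1 was lower. The background over the 13084 measured protein-coding genes was 24.6% higher and 17.6% lower. This split depended on the scaling: it was 7.85% higher and 48.5% lower after rescaling both libraries to the same sum of FPKM (TPM), and 14.5% and 30.4% after scaling to total fragments. Such a call is easier for abundant genes. Among the 881 such genes whose mean reached 50 FPKM or more, 59.8% passed upwards and 16.5% downwards, and 5 of the 5 members at that level were higher. None of the 7 members reached 2-fold in either direction, against 1.24% of the background genes, 0.948% higher and 0.29% lower. The median log2 ratio of the 7 members was 0.25, beside 0.02 over all measured genes and 0.12 over those that reached 50 FPKM.

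For Gpx5 the log2 ratio was 0.22 and the ratio of FPKM 1.16, with a counting interval of 1.16 to 1.17. With so many fragments the interval is narrow, and it leaves out the spread between mice. Of all measured genes, 83.1% had a lower log2 ratio than Gpx5. Among genes that reached 50 FPKM the 75th percentile was 0.27, above the log2 ratio of Gpx5. The size of the Gpx5 log2 ratio depended on the scaling: it was 0.017 on the TPM scale, a step that put the all-gene median at −0.15, and 0.12 after scaling to total fragments. It stayed above 0 in each.

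Gpx3 had the largest positive log2 ratio of the measured members, 0.45, with a ratio of 1.36 (interval 1.33 to 1.39). Of all measured genes, 95.1% had a lower one, a share that the pseudocount and the many low genes raise. Without pseudocount the 95th percentile over all measured genes was 0.55, and Gpx3 lay below it. Among genes that reached 50 FPKM the 95th percentile was 0.83. Without Gpx5, the family's summed FPKM was 785 and 1009, and Gpx3 made up most of both sums. On the TPM scale Gpx3 was still higher beyond counting error, at 0.24.

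The intracellular enzymes Gpx1 and Gpx4 were higher by similar amounts. For Gpx1 the log2 ratio was 0.31 and the ratio 1.24 (interval 1.17 to 1.32), and for Gpx4 they were 0.25 and 1.19 (1.13 to 1.26). The FPKM of Gpx1 was 0.898 times that of Gpx4 in the library labelled WT and 0.935 times in the library labelled KO. On the TPM scale both were smaller, 0.11 and 0.05, and the Gpx4 interval then included no change.

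The ER members, which both act beside the protein disulfide isomerases, had log2 ratios of opposite sign. For Gpx8 the log2 ratio was 0.33 and the ratio 1.26 (interval 1.15 to 1.39), and for Gpx7 they were −0.12 and 0.915 (0.785 to 1.07). The FPKM of Gpx7 was 0.368 times that of Gpx8 in the library labelled WT and 0.267 times in the library labelled KO. Gpx7 was not called at the deposited scaling. On the TPM scale Gpx8 lost its call, at 0.13, and Gpx7 was lower beyond counting error, at −0.31, as it also was after scaling to total fragments, at −0.21.

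Gpx6 was the only measured member lower beyond counting error at the deposited scaling. Its log2 ratio was −0.54 and its ratio 0.675, with an interval of 0.593 to 0.768. Only 2.66% of all measured genes had a lower log2 ratio. It was lower under every scaling tried, from −0.54 to −0.74. In cysteine codon members the log2 ratios thus ran from −0.54 for Gpx6 to 0.33 for Gpx8, with Gpx5 between them, and in the 3 measured selenocysteine members from 0.25 to 0.45.

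**Figure D2:**
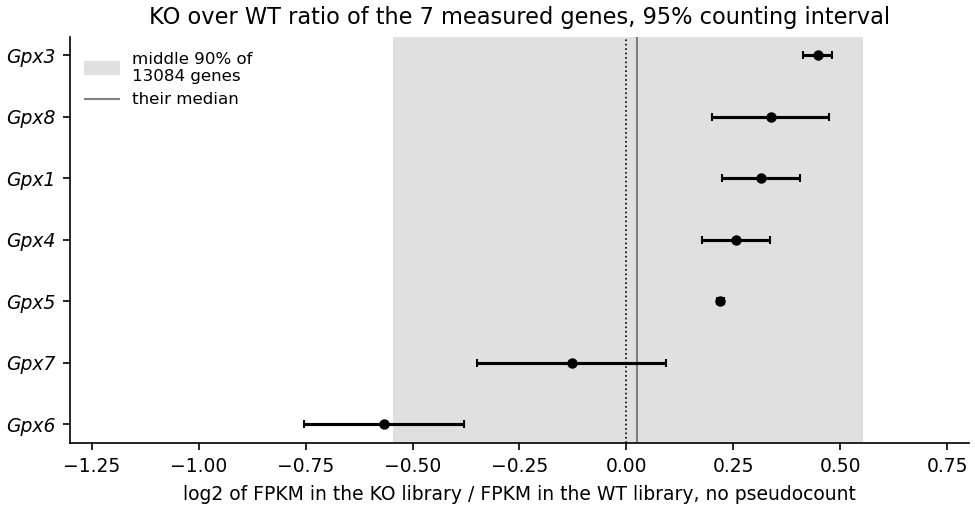
Ratio of FPKM in the library labelled KO to that in the library labelled WT for the 7 measured members on a log2 axis without pseudocount, with 95% counting intervals; the grey band spans the middle 90% of the 13084 measured protein-coding genes. Gpx3, Gpx8, Gpx1, Gpx4 and Gpx5 lie to the right of 0, the Gpx7 interval crosses 0 and Gpx6 lies to the left.

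Gpx2 was too low for a comparison. Its ratio, from 1 and 4 fragments, was 3.96 with an interval of 0.392 to 195, so a difference was not detectable at this depth. Its line lies inside the gene body of Fntb, on the opposite strand (5.90 and 6.01 FPKM), and nothing in the sources used here says whether the counting used strand. The deposited Gpx2 length of 3222 bases equals its whole gene body, whereas its transcript with the longest coding sequence has 1067 bases. Markers of intestinal epithelium, the tissue Gpx2 is known from, were low as well: Cdx1 and Fabp2 had 0 fragments in both libraries, and the 6 listed genes summed to 2.23 and 3.48 FPKM. Most of both sums was Vil1 (1.77 and 2.80 FPKM), the only measured gene of the list. Vil1 was higher beyond counting error, as were 24.6% of all measured genes.

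For 8 of the 8 members the deposited chromosome, start and end equal those of GENCODE M21 (mm10). Gpx1 (ENSMUSG00000063856) lies on chromosome 9 from 108338903 to 108340343, Gpx2 (ENSMUSG00000042808) on chromosome 12 from 76792333 to 76795554 and Gpx3 (ENSMUSG00000018339) on chromosome 11 from 54902453 to 54910377. Gpx4 (ENSMUSG00000075706) lies on chromosome 10 from 80047166 to 80056439 and Gpx7 (ENSMUSG00000028597) on chromosome 4 from 108400390 to 108406961. Gpx8 (ENSMUSG00000021760) is on chromosome 13, as Gpx5 and Gpx6 are, but far from them, from 113042753 to 113046410.

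Gpx5 and Gpx6 are neighbours. Gpx5 (ENSMUSG00000004344, 21286429 to 21292731, minus strand) and Gpx6 (ENSMUSG00000004341, 21312125 to 21319624, plus strand) point away from each other, with 19.4 kb between their starts. The FPKM of Gpx5 was 333 times that of Gpx6 in the library labelled WT and 573 times in the library labelled KO. Within 150 kb of the pair the table had 14 other genes, 8 of them protein-coding, and the highest level among these was 14.7 FPKM.

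Among the genes around the pair, Zscan26 and Nkapl differed beyond counting error. Trim27, a ubiquitin ligase gene, was at 13.0 and 13.3 FPKM, and the zinc finger gene Zkscan3 at 9.93 and 10.2 FPKM. Zscan26, another zinc finger gene, was higher, at 12.2 and 14.7 FPKM. Nkapl was lower, at 1.88 and 0.57 FPKM from 39 and 12 fragments, a ratio of 0.305 (interval 0.145 to 0.594). The olfactory receptor genes Olfr1367 and Olfr1368 had 0 fragments in both libraries, and the remaining neighbours did not differ beyond counting error.

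**Figure D3:**
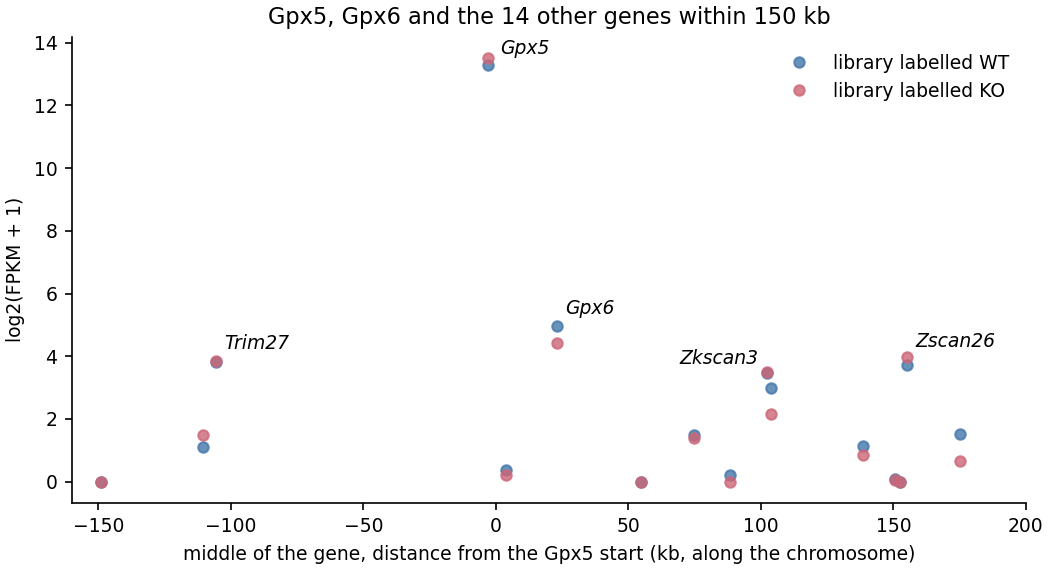
Levels, as log2(FPKM + 1), of Gpx5, Gpx6 and the 14 other genes within 150 kb of either, by distance of the gene's middle from the Gpx5 start in kb, in the library labelled WT (blue) and the library labelled KO (red). Gpx5 stands alone at the top, Gpx6 is next, and the highest of the rest is at 14.7 FPKM.

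Reads could be shared between copies for Gpx4 and Gpx2 only, as far as annotated transcripts show. No stretch of 50 bases in the main transcripts of Gpx1, Gpx3, Gpx5, Gpx6, Gpx7 or Gpx8 occurred in a transcript of another gene. For Gpx4 61.7% of such stretches did, chiefly in the processed pseudogene Gpx4-ps2, whose longest transcript matched that of Gpx4 at 98.0% of 757 aligned bases. In the stretch around the catalytic codon, Gpx4-ps2 differed at 1 of 36 bases, given in capitals, and the codon itself was the same.
Gpx4-ps2: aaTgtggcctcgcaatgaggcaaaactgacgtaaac

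Gpx4-ps2 (chromosome 10, 45875291 to 45876086) was listed at 37.1 FPKM (418 fragments) and 45.5 FPKM (518 fragments), a ratio of 1.23 (interval 1.08 to 1.40), close to the 1.19 of Gpx4. Adding its fragments left the Gpx4 log2 ratio at 0.26. The split between gene and copy is therefore uncertain, and the direction of their sum is the same. Gpx2-ps1, a pseudogene of Gpx2 on chromosome 7, had 0 fragments under WT and 11 under the KO label, a ratio whose counting interval has a lower limit of 2.49. With these added, Gpx2 had 1 and 15 fragments and was higher beyond counting error, a call that rests on the fragments of the pseudogene. The Gpx2 line alone was not called. Of the 50-base stretches of Gpx2, 18.9% occurred in Gpx2-ps1, and of those of Gpx2-ps1, 36.8% occurred in Gpx2.

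Gpx5 was next set beside the epididymal markers, since it is itself a gene of that epithelium. Of the 17 markers, 14 were higher and 2 lower beyond counting error, beside 24.6% and 17.6% of all measured genes. Among genes that reached 50 FPKM, as most of the markers did, these shares were 59.8% and 16.5%. Of the markers, 5 were at least 2-fold higher, where 0.948% of all measured genes were. The markers' median log2 ratio was 0.51. On the TPM scale 12 were higher and 3 lower, with a median of 0.31, beside 7.85% and 48.5% of all measured genes. Of these markers, 12 had a higher log2 ratio than the 0.22 of Gpx5. The level of Gpx5 was 0.669 times the markers' summed FPKM in the library labelled WT and 0.541 times in the library labelled KO, so relative to them it was lower in the library labelled KO, a statement that no scaling between libraries changes.

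The markers themselves did not move as 1 block. The lipocalin genes Lcn9 (646 and 2154 FPKM) and Lcn5 (1284 and 2667 FPKM), and the ribonuclease family gene Rnase13 (35.8 and 109 FPKM), were at least 2-fold higher. Cst11, a cystatin gene (2052 and 2331 FPKM), and Rnase10 (1082 and 1251 FPKM) had log2 ratios of 0.18 and 0.21, near that of Gpx5. The receptor gene Ros1, required for the initial segment of the epididymis to form, was at 39.7 and 40.2 FPKM. Lcn6 (452 and 316 FPKM) and Teddm1a (1068 and 920 FPKM) were lower, and the KO over WT ratio of Lcn6, 0.701, was near the 0.675 of Gpx6. How far the amount of epididymal tissue in each library bears on Gpx5 was not tested.

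The 5 protein-coding genes nearest to Gpx5 in level, by the distance of log2(FPKM + 1) over both libraries, were mt-Co1, Lcn8, mt-Cytb, Defb47 and Eef1a1. With 2 libraries this likeness rests on level alone. The nearest, the mitochondrial gene mt-Co1 (3853 and 5590 FPKM), was 1.74 log2 units away. Lcn8, an epididymal lipocalin gene (3719 and 4750 FPKM), was 1.93 away, and the beta-defensin gene Defb47 (3585 and 2174 FPKM) 2.84. No protein-coding gene thus came within a log2 unit of Gpx5.

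Markers of other sources were checked for the members known from them. Gpx4 is abundant in spermatids, where a form of it becomes part of the sperm midpiece. The 9 listed spermatid and sperm genes summed to 42.5 and 189 FPKM, with the protamine gene Prm2 at 5.21 and 54.1 FPKM. Of them, 8 of 8 measured were higher beyond counting error, beside 24.6% of all measured genes. On the TPM scale 8 were also higher, beside 7.85% of all measured genes. The ninth, the acrosomal gene Acrv1, was below 1 FPKM and lower, at 22 and 10 fragments. None of the 9 was at 0 in both libraries. The gene-level value does not separate the Gpx4 forms, and the part of germ cells in its ratio was not tested.

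Gpx3 in plasma comes mainly from kidney tubules. Of the 6 listed kidney tubule genes Slc22a6 had 0 fragments in both libraries, Slc34a1 1 and 11, and the list summed to 11.0 and 13.3 FPKM, mostly Lrp2 (8.18 and 10.0 FPKM), which other epithelia also express. Of its 3 measured members 2 passed upwards and 0 downwards, beside 24.6% and 17.6% of all measured genes. On the TPM scale the counts were also 2 and 0, beside 7.85% and 48.5%. The 2 higher at the deposited scaling were Lrp2 and Umod. Umod, which encodes the tubule protein uromodulin, stood at 0.69 and 1.82 FPKM from 27 and 72 fragments. The third, Kap, was at 1.90 and 1.09 FPKM from 19 and 11 fragments and was not called. Slc5a2, below 1 FPKM, had 10 and 7 fragments. The part of kidney cells in the Gpx3 ratio was not tested. For Gpx6, the listed olfactory genes Cyp2g1 and Obp1a had 0 fragments in both libraries. Omp was at 8.63 and 8.80 FPKM, but lies inside Capn5 (44.3 and 49.9 FPKM) on the same strand. These markers therefore give little to set beside the lower Gpx6 level.

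Gpx6 was lower, and Gpx7 not called, beside stromal markers that were mostly lower. Of 7 markers of adipose progenitors and stroma, 5 were lower and 2 higher, beside 17.6% and 24.6% of all measured genes. Among the lower were the surface gene Cd34, at 52.6 and 27.4 FPKM, and Col1a1, a collagen gene, at 531 and 377 FPKM. Of the 2 higher, the more abundant was Ly6a, at 67.5 and 78.9 FPKM. The list summed to 731 and 552 FPKM, with none at 0. Whether these cells carry Gpx6 or Gpx7 was not tested. The 4 macrophage markers summed to 125 and 133 FPKM. Erythroid genes, whose cells hold much Gpx1, summed to 592 and 707 FPKM, with none at 0. Of these, 4 of 4 were higher, beside 24.6% of all measured genes. The part of erythroid cells in the Gpx1 ratio was not tested either. On the TPM scale 1 of the 4 erythroid genes was higher, and 5 stromal markers were lower and 0 higher. Over all measured genes 7.85% were higher and 48.5% lower on that scale.

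**Figure D4:**
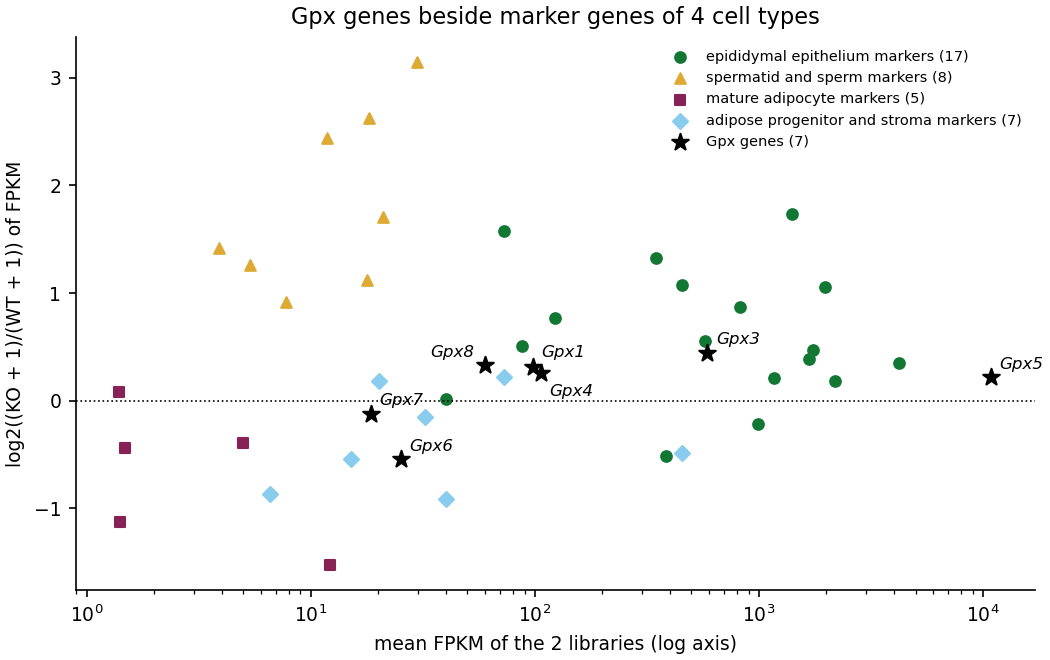
Mean FPKM of the 2 libraries (log axis) against log2((KO + 1)/(WT + 1)) for the 7 measured Gpx genes (stars) and measured marker genes of 4 cell types. Gpx5 lies far right at 0.22, below 12 of the 17 epididymal markers, while the 8 spermatid and sperm markers lie between 0.92 and 3.15.

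The enzymes that make, recycle and use glutathione were then examined from lists of pathway genes. In glutathione synthesis and recycling, 7 of 14 listed genes passed upwards and 1 downwards beyond counting error, none reached 2-fold, and the median log2 ratio was 0.13, beside 24.6% higher and 17.6% lower over all measured genes. On the TPM scale 1 passed upwards and 5 downwards, with a median of −0.065, where the shares over all genes were 7.85% and 48.5%. The same backgrounds apply to the lists that follow. Gclc, the catalytic subunit of the rate-limiting ligase, was at 16.1 and 21.8 FPKM (log2 ratio 0.42). Glutathione reductase, Gsr, which returns oxidised glutathione to the form that peroxidases use, was at 32.3 and 34.3 FPKM and was not called. The NADPH-producing enzyme gene G6pdx was at 50.1 and 58.3 FPKM. Cth, which makes cysteine from cystathionine, was the member that was lower, at 26.8 and 21.4 FPKM.

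Extracellular glutathione is broken down at the cell surface. Of 8 genes in that list 7 were measured, 5 higher and 1 lower, with a median of 0.21, and on the TPM scale 2 were higher and 2 lower, with a median of 0.015. Ggt1, a gamma-glutamyl transferase, was at 30.6 and 49.1 FPKM (0.67), the related Ggt7 at 7.46 and 12.1 FPKM (0.63), and the dipeptidase gene Dpep3 at 4.57 and 1.94 FPKM (−0.93).

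Gpx1 to Gpx4 depend on selenium supply. Of 14 genes for selenium transport and selenocysteine insertion, 3 were higher and 1 lower, with a median of 0.06, a share of higher calls near the background. Rescaled to TPM, 2 were higher and 5 lower, with a median of −0.11, and after scaling to total fragments 3 and 4, with a median of −0.017. Sars, the seryl-tRNA synthetase that charges the selenocysteine tRNA, was at 19.1 and 24.2 FPKM, and Trnau1ap, which binds that tRNA, at 13.4 and 16.2 FPKM. Eefsec, the elongation factor for selenocysteine, was at 7.06 and 7.19 FPKM and Secisbp2 at 6.68 and 6.18 FPKM, neither beyond counting error. Selenop, the plasma selenium carrier, was lower by a small amount, at 105.1 and 100.1 FPKM.

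Of 20 other selenoprotein genes 19 were measured, 3 higher and 3 lower, with a median of −0.03, and on the TPM scale 0 were higher and 11 lower, with a median of −0.18. Selenoo had the highest log2 ratio among them, 0.26, at 7.64 and 9.34 FPKM, and Txnrd3, a thioredoxin reductase of the testis, the lowest, −0.34, at 12.6 and 9.81 FPKM. The log2 ratio of Gpx3, 0.45, lay above this whole range, and that of Gpx1, 0.31, did too, whereas that of Gpx4, 0.25, lay inside it. Selenow was lower, at 64.9 and 56.6 FPKM.

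Enzymes outside the family that remove superoxide and peroxide were 7 higher and 1 lower of 11, with a median of 0.11. With TPM 1 was higher and 5 lower, with a median of −0.084, and after scaling to total fragments 2 and 2. Prdx6, a peroxiredoxin that like Gpx4 acts on phospholipid hydroperoxides, had the largest log2 ratio, 0.37, at 77.5 and 101 FPKM. Prdx1 was the most abundant, at 150 and 163 FPKM, and the 11 genes summed to 521 and 575 FPKM. Gpx5 alone was 19.3 and 20.3 times that sum. Cat, catalase, was at 21.2 and 19.9 FPKM and was not called. Prdx4, the ER peroxiredoxin, was lower, at 25.4 and 20.6 FPKM.

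The ER list gave the surroundings of Gpx7 and Gpx8. All 9 of its listed genes found among the deposited lines were measured, 2 higher and 3 lower, with a median of −0.01. With TPM, 1 was higher and 8 lower, with a median of −0.22, and after scaling to total fragments 1 and 7. P4hb, the main protein disulfide isomerase, was at 359 and 377 FPKM and the chaperone gene Hspa5 at 543 and 523 FPKM. The sulfhydryl oxidase gene Qsox1 stood apart with 0.50, at 16.0 and 23.0 FPKM. Gpx8, with 0.33, thus lay above 8 of the 9, and Gpx7, with −0.12, above 2 of them.

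**Figure D5:**
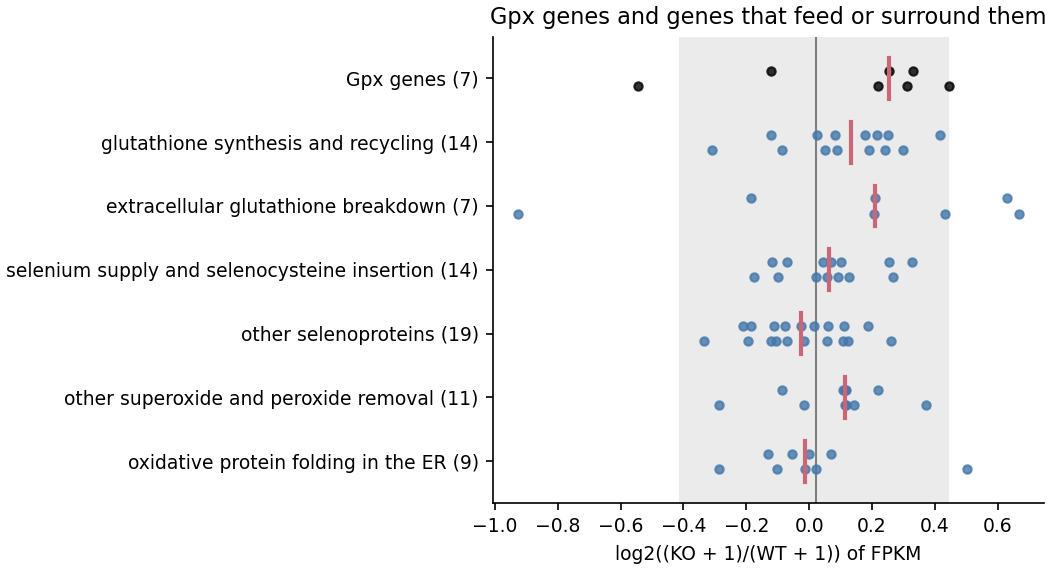
Values of log2((KO + 1)/(WT + 1)) for the 7 measured Gpx genes (black) and for measured members of 6 pathway lists (blue), with each list's median as a red bar, the median of all 13084 genes as a grey line and their middle 90% as a grey band. Among the sets shown, the Gpx median of 0.25 is followed by 0.21 for extracellular glutathione breakdown. Hydrogen peroxide sources, a list not shown, had a median of 0.33 (−0.011 without the filter on FPKM). Of the Gpx genes, Gpx3 (just above the band) and Gpx6 (below it) lie outside. Among genes that reached 50 FPKM the middle 90% ran from −0.21 to 0.83, a range that holds Gpx3.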

How the data were processed

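Total RNA was sequenced in 1 library per genotype (Illumina TruSeq kit, per the labels' protocols). The authors deposited FPKM values, 1 per gene in each library, beside gene length (in bases) and position. HISAT2 2.0.5 and mm10 (beside hg38) stand in the submitters' processing notes, and the fragment counter is not given there. Multiplying FPKM by gene length gave, in each library, multiples of the value of 1 fragment (100% of values, tolerance 0.01 of a fragment), from which fragments were recovered. A 1 kb gene with 1 fragment had 0.0706 and 0.0699 FPKM. Log2 ratios used a pseudocount of 1 FPKM. Measured genes had a mean of at least 1 FPKM. Clopper-Pearson (ratios) and Poisson (levels) intervals cover counting error only, and reads are not known to carry molecular identifiers. The computation used Python 3.11.15 with scipy 1.17.1 and Biopython 1.88 and was tested on simulated data.

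Codons, transcript lengths and shared 50-base stretches came from GENCODE M21 (GRCm38). Where a symbol had several lines, that with the higher mean FPKM was taken. The members and all lists were chosen with earlier results of these data known. All 8 members were named, as were the 5 genes nearest to Gpx5 in level and the genes within 150 kb. From each list, names were drawn from the 4 largest log2 ratios and the 3 highest levels, and marker genes were named where they bear on a member. Gsr, Cat, Eefsec, Secisbp2, Lcn6, Teddm1a, Ros1, Rnase10, Nox1, Nox4, Duox1 and Duox2, and the limit of 50 FPKM, were chosen after their values were seen. Alternatives were other pseudocounts, filters and scalings, pseudogene lines added to their gene, transcript lengths, and lists without their farthest member. With TPM and the other scalings, each library was multiplied by a factor that kept their geometric mean. No test across replicates was possible.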

Additional observations from a re-analysis of the deposited data

How the results depend on the processing

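The counts and levels rest on 1 library per genotype, so only counting error and the choice of scaling could be examined, and the cause of each change was not tested. The log2 ratio of Gpx5, 0.22, was 0.017 with TPM, 0.12 with total fragments and 0.16 with fragments outside the 100 most abundant genes. With TPM the calls beyond counting error were 3 Gpx genes up and 2 down, and with total fragments 2 were down. Medians that changed sign with TPM were those of glutathione synthesis (−0.065), selenium supply (−0.11), superoxide and peroxide removal (−0.084), the NRF2 pathway (−0.11) and ferroptosis (−0.072). With total fragments those of selenium supply (−0.017) and NRF2 (−0.0057) did, and without a filter on FPKM that of hydrogen peroxide sources (−0.011). Glutathione breakdown moved to 0.015 with TPM and to 0.42 with a mean of at least 5 FPKM. The ER list moved to −0.22 with TPM, −0.11 with total fragments and −0.077 outside the 100 most abundant genes. Over all protein-coding genes, 124 were at least 2-fold higher and 38 lower. These counts were 208 and 130 with a pseudocount of 0.1 FPKM and 66 and 2 with 5 FPKM. The lower count was 84 with TPM and 19 with a mean of at least 5 FPKM. No Gpx gene reached 2-fold among the measured ones under the pseudocounts and scalings tried. No paired analysis was possible because each genotype has 1 library.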

Other observations

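Genes that produce hydrogen peroxide, the substrate of the family, were examined at the deposited scaling first. Of 16 listed, 10 had a mean of at least 1 FPKM, and 6 were higher and 0 lower beyond counting error, with a median log2 ratio of 0.33, where 24.6% of all measured genes were higher. The 6 genes under that level had log2 ratios below 0. After rescaling to TPM 9 were measured, 4 higher and 2 lower, with a median of 0.18, and without the filter on FPKM the median was −0.011. The sulfhydryl oxidase gene Qsox2 was at 25.3 and 33.0 FPKM. The oxidase genes Nox1, Nox4, Duox1 and Duox2 were below 1 FPKM in both libraries.

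NRF2 is the transcription factor that turns on many glutathione genes. Of 12 genes of its pathway 5 were higher and 1 lower, with a median of 0.09, and after rescaling to TPM 2 were higher and 7 lower, with a median of −0.11. Several of them, among them Gclc, Gclm and Gsr, were already counted in the lists above. Nqo1 was at 12.2 and 16.5 FPKM, whereas Hmox1, heme oxygenase, went the other way, at 19.5 and 12.2 FPKM. Among 12 genes of ferroptosis, the death by lipid peroxidation that Gpx4 prevents, 4 were higher and 2 lower, with a median of 0.09, and after rescaling to TPM 3 were higher and 5 lower, with a median of −0.072. The iron store genes Ftl1 (289 and 418 FPKM) and Fth1 (789 and 993 FPKM) were higher, and Acsl4, which feeds polyunsaturated lipids into membranes, was slightly lower, at 37.0 and 34.4 FPKM.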
